A study of Mus musculus with 2 samples.

Results

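The mir-34 family of the mouse consists of 3 microRNA genes, Mir34a, Mir34b and Mir34c, and all 3 were found by symbol among the 1973 microRNA genes of the count tables. The tables come from microRNA-sized RNA of heart tissue at embryonic day 12.5, from B6NCrl embryos labelled as mixed sex, with no treatment or mutation given. The design holds 1 group of 2 biological replicates, so it gives levels and their spread but no contrast between conditions. The reads that matched a microRNA gene in its own orientation numbered 4478599 in replicate 1 and 5279908 in replicate 2. Levels are given as CPM, the gene's share of these sense counts scaled to 1000000.

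The mir-34 genes are known as direct transcriptional targets of p53, the tumour suppressor that is activated by DNA damage and other stress. Their mature products repress regulators of the cell cycle and of cell survival, among them Cdk6, Met and Bcl2. In the mouse heart, miR-34a is known to accumulate with age and after injury. Mir34b and Mir34c come from 1 locus and, together with the mir-449 genes of a Cdc20b intron, are best known from multiciliated epithelium, brain and testis.

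A mature microRNA finds its targets mainly through its seed, bases 2 to 8 from the 5′ end. The sequences below, from the RefSeq microRNA table of GRCm38.p6, show how the family members relate to each other and to mir-449, with the seed in capitals.

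mmu-miR-34a-5p: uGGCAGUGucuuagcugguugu

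mmu-miR-34b-5p: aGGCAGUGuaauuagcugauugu

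mmu-miR-449a-5p: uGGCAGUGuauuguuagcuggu

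mmu-miR-449c-5p: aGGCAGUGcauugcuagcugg

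mmu-miR-34a-3p: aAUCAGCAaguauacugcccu

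mmu-miR-34b-3p: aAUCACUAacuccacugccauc

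mmu-miR-34c-3p: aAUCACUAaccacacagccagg

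The 4 printed arms ending in 5p carry the same seed, and among the 1738 mature entries of the table no further one has it. The entries used held neither miR-34c-5p nor an arm of Mir449b. These arms were therefore not part of that search or compared here, and nothing is said of their seeds. Bases were compared position by position from the 5′ end, without gaps. So counted, miR-34a-5p has the same base as miR-34b-5p at 11 of 22 positions and as miR-449a-5p at 15 of 22. Since miR-34b-5p has 23 bases, while miR-34a-5p and miR-449a-5p have 22, a shift in register can lower its count. These counts therefore do not rank the relatives by likeness. The 3p arms divide the family differently. Those of Mir34b and Mir34c share a seed that no other entry holds and have the same base at 17 of 22 positions, while the 3p seed of Mir34a is held by that entry alone. Over the whole arm, miR-34a-3p and miR-34b-3p have the same base at 15 of 21 positions. The counts are per gene, so the 5p and 3p arms of a gene are summed and cannot be told apart.

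Mir34a (ENSMUSG00000065493.1) lies on chromosome 4 of mm10 from 150068454 to 150068555 on the plus strand, and its last 17 bases overlap an exon of Gm37795, a transcript of unsettled class on the same strand. Mir34c (ENSMUSG00000065587.1) lies on chromosome 9 from 51103034 to 51103110 and Mir34b (ENSMUSG00000065492.1) from 51103562 to 51103645, both on the minus strand with 451 bases between them. Both lie within an intron of Btg4, a protein-coding gene of the plus strand. No stretch of 22 bases in the 3 hairpins occurs in another of the 1893 annotated hairpins compared. The longest run shared with another hairpin was 12 bases for Mir34a and 11 bases for Mir34b and for Mir34c. Reads with several matches in the genome were not assigned to genes, and the whole genome was not searched for further copies of the 3 hairpins.

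Mir34c had the most counts of the family, Mir34a came second and Mir34b last, in both libraries. Mir34c had 3364 counts in replicate 1 and 3609 in replicate 2, which are 751 and 684 CPM (717 ± 47.8, SD, n = 2). Mir34a had 850 and 1013 counts, which are 189.8 and 192 CPM (191 ± 1.46, SD, n = 2). Mir34b had 107 and 159 counts, which are 23.9 and 30.1 CPM (27.0 ± 4.40, SD, n = 2). The ranges of the 3 genes did not overlap, and neither did their exact Poisson 95% intervals. The intervals reached from 661 to 777 CPM over both libraries for Mir34c, from 177 to 204 CPM for Mir34a and from 19.6 to 35.2 CPM for Mir34b. They cover counting error only. Reads are not independent molecules where no molecular identifiers are stated, so the intervals may be too narrow even for that error.

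**Figure D1:**
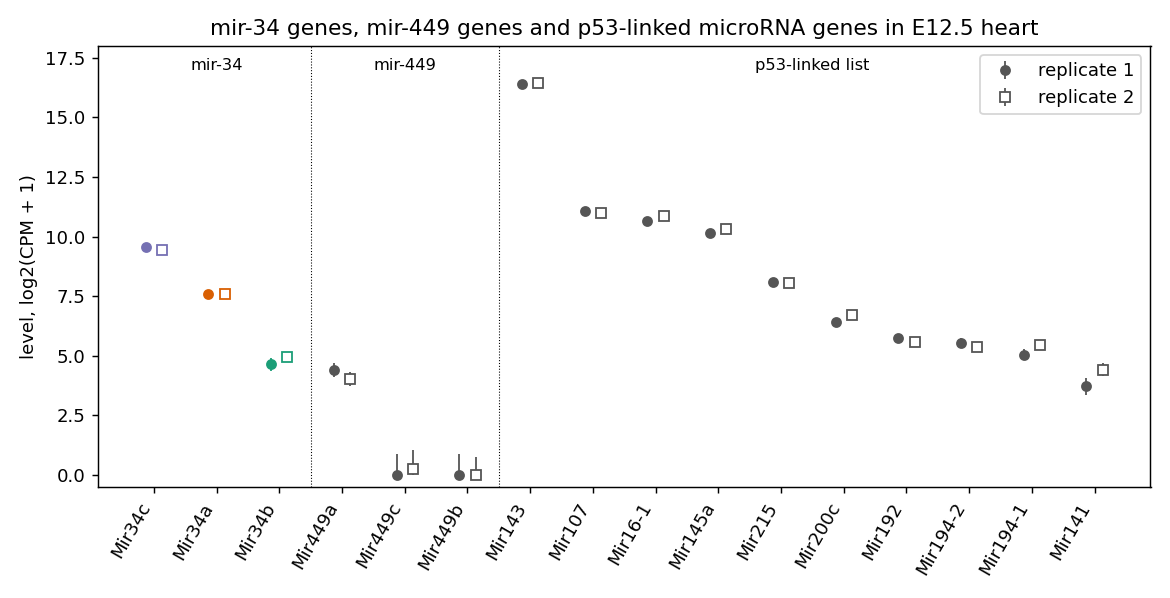
Level of each gene as log2(CPM + 1) in replicate 1 (filled circles) and replicate 2 (open squares), with exact Poisson 95% intervals as bars, for the mir-34 genes, the mir-449 genes and 10 other microRNA genes linked to p53. Mir34c, Mir34a and Mir34b form 3 separate steps, Mir449a stands close to Mir34b, and Mir449b and Mir449c stand at or near 0.

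Mir34c alone supplied most of the family's counts. The 3 genes together had 4321 counts in replicate 1 and 4781 in replicate 2, or 0.0935% ± 0.00419 (SD, n = 2) of all sense counts. Of these family counts, Mir34c held 76.7% ± 1.67, Mir34a 20.4% ± 1.07 and Mir34b 2.90% ± 0.601 (SD, n = 2). In each library the exact binomial 95% intervals of these shares lay far apart, at 76.6% to 79.1% for Mir34c in replicate 1 against 18.5% to 20.9% for Mir34a. Summed by the number in the gene name, mir-34 stood at place 72 of 564 families with a count. That place is uncertain, because families with near-identical copies are undercounted.

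The genes of the shared locus differed the most. Mir34c exceeded Mir34b by a ratio of 31.4 in replicate 1 (exact binomial 95% interval 25.9 to 38.5) and 22.7 in replicate 2 (19.4 to 26.8), a mean of 27.1 ± 6.18 (SD, n = 2). Mir34c exceeded Mir34a, which has its own locus, by a ratio of 3.76 ± 0.279 (SD, n = 2). Mir34a in turn exceeded Mir34b by a ratio of 7.16 ± 1.11 (SD, n = 2). Each ratio was at least several times its spread between replicates. An error common to both libraries would not appear in that spread. How counts of different sequences relate to numbers of molecules was not tested.

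The order held when counts were set against the length of the annotated hairpins, which is 77 bases for Mir34c, 84 for Mir34b and 102 for Mir34a. Per hairpin base, the ratio of Mir34c to Mir34b was 29.5 ± 6.74, that of Mir34c to Mir34a 4.98 ± 0.370 and that of Mir34a to Mir34b 5.89 ± 0.916 (SD, n = 2). The libraries hold RNA of under 30 bases by the labels, so a read covers a mature arm and not the hairpin. The mature entries of the family are 21 to 23 bases long.

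The difference between Mir34c and Mir34b was set beside those of other neighbours. Among 101 pairs of successive microRNA genes on the same strand, less than 10 kb apart and each reaching 10 CPM in replicate 1 and in replicate 2, the median absolute difference in log2(mean CPM + 1) was 2.55, with quartiles of 1.43 and 3.78. Mir34c and Mir34b differed by 4.68 on this scale, which was more than in 81 pairs and less than in 19. Pairs share genes, so these counts are a description and not a test.

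**Figure D2:**
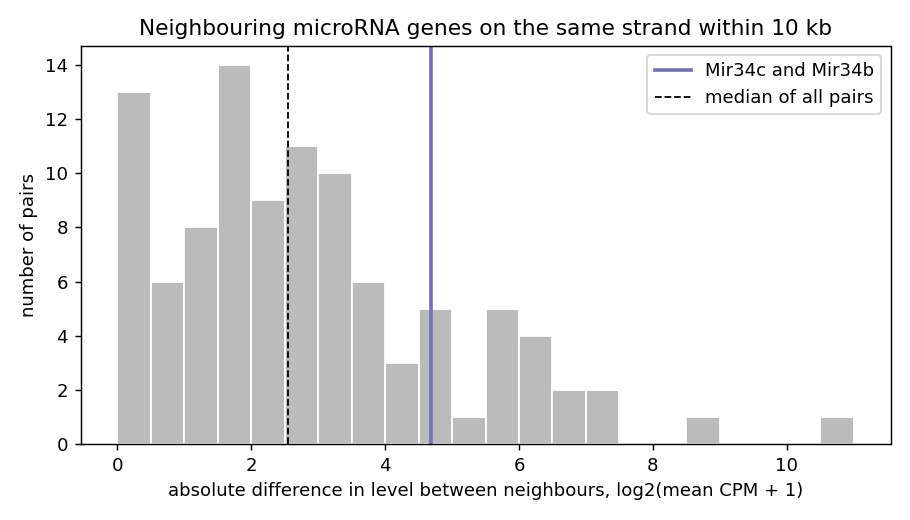
Number of neighbouring pairs (vertical axis) by the absolute difference between their levels in log2(mean CPM + 1) (horizontal axis). The difference of Mir34c and Mir34b, at 4.68, lies above the median of all pairs, at 2.55, and within the range of the others.

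Differences of this size between relatives were also seen elsewhere in the tables. In 21 families with at least 2 genes at 10 CPM in both libraries and no window of 22 bases shared with another hairpin, the highest gene exceeded the lowest by a median factor of 5.15, with a range from 1.18 to 289. For mir-34 this factor, from the mean CPM of Mir34c and Mir34b, was 26.6, and 5 families had a larger one.

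In the order of all microRNA genes the family lay well below the genes with the most counts and above most of the 712 genes with a count. By mean CPM, Mir34c stood at place 95, Mir34a at place 146 and Mir34b at place 247. All 3 reached 10 CPM in both libraries, which 14.4% of all genes in the tables did. The median level of the 3 genes was 191 CPM, beside 2.53 CPM over the 712 genes with a count in either library. The heart muscle genes Mir208b, Mir208a and Mir499, which lie in introns of myosin heavy chain genes and mark the tissue, had sums of 63958 and 61924 CPM in replicates 1 and 2. All 3 of these markers were found at high counts, and the mir-34 sums of 965 and 906 CPM stood far below them.

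**Figure D3:**
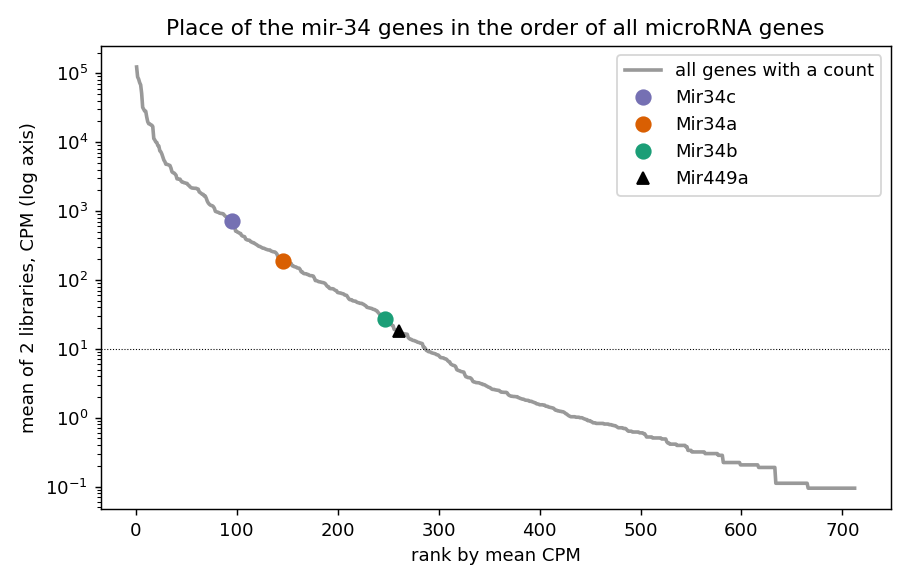
Mean CPM of the 2 libraries (vertical log axis) against rank (horizontal axis) for all genes with a count. Mir34c, Mir34a and Mir34b stand at places 95, 146 and 247, all above the dotted line at 10 CPM, with Mir449a at place 261.

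Several neighbours in this order could not be separated from the mir-34 genes. Mir674, directly above Mir34c, had 733 and 718 CPM, and Mir341, directly below it, had 704 and 705 CPM, both within the range of Mir34c. Mir362, directly below Mir34a, had 153 and 225 CPM and spanned both values of Mir34a. Mir500, directly above Mir34a at 204 and 202 CPM, did not overlap it. Mirlet7a-1, directly above Mir34b, had 27.5 and 26.7 CPM, and Mir206, known from skeletal muscle and directly below Mir34b, had 29.0 and 24.6 CPM, both within its range. The hairpin of Mirlet7a-1 shares a window of 22 bases with another hairpin, so its level is uncertain.

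Likeness was measured as the distance in log2(CPM + 1) over the 2 libraries. The 3 genes closest to Mir34c were Mir674, Mir134 and Mir341, at distances of 0.08, 0.08 and 0.10. Those closest to Mir34a were Mir485, Mir669l and Mir148b, at 0.06, 0.08 and 0.09, and the level of Mir669l is uncertain because its hairpin shares a window of 22 bases with another. Those closest to Mir34b were Mir135b, Mir758 and Mirlet7a-1, at 0.10, 0.19 and 0.26. With 2 libraries this measure reflects little more than a like level.

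None of the 3 genes differed 2-fold between the replicates. The libraries were compared gene by gene with an exact binomial test of the counts, adjusted by Benjamini-Hochberg over 712 genes. A call needed an adjusted p under 0.05 and a ratio of at least 2. Of the 3 genes 0 were called, and 0.421% of all genes tested were. At any ratio, 1 of the 3 passed the adjusted p, and 16.7% of all genes did. That gene was Mir34c, which was higher in replicate 1 by a log2 ratio of 0.14 (ratio 1.10, 95% interval 1.05 to 1.15, adjusted p = 0.000688, exact binomial test). The test holds counting error alone and compares 2 libraries, not conditions. At any ratio a pass also depends on depth, and the median level over the 712 genes was only 2.53 CPM. The edgeR exact test, which adds a common dispersion, gave Mir34c a log2 ratio of 0.12. That dispersion was estimated from these same libraries as 1 group, so it already holds the difference under test. It therefore cannot serve as a check on the binomial result.

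Mir34b was lower in replicate 1, with a log2 ratio of −0.33 (95% interval of the ratio 0.615 to 1.02), and its adjusted p was 0.268 in the exact binomial test. Mir34a had a log2 ratio of −0.02 (95% interval of the ratio 0.902 to 1.08) and an adjusted p of 1 in the exact binomial test. The genes of the shared locus had ratios of opposite sign, and that of Mir34b was not separated from 1. Among 287 genes averaging 10 CPM or more, the median absolute log2 ratio between the libraries was 0.14. Mir34c lay at that median, Mir34a below it and Mir34b above the upper quartile of 0.24.

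**Figure D4:**
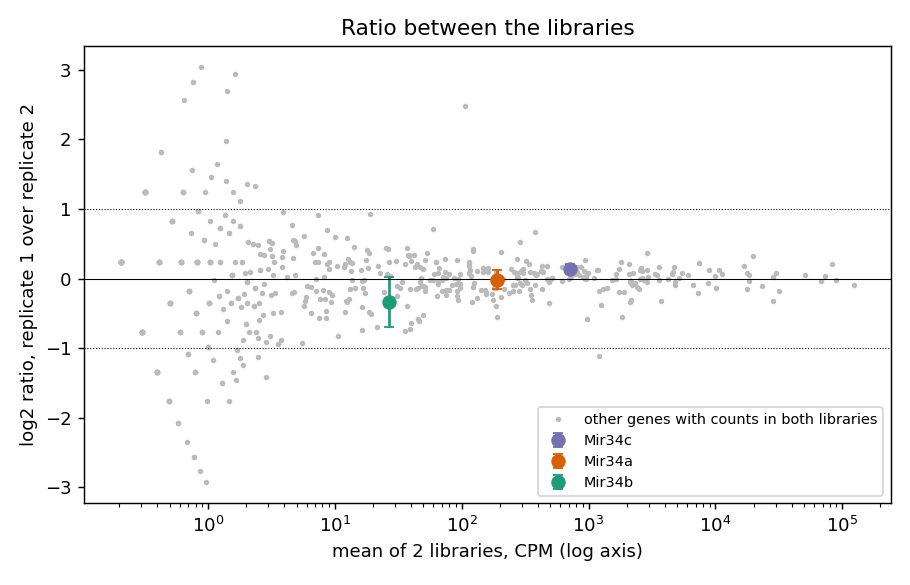
Log2 ratio of replicate 1 over replicate 2 (vertical axis) against mean CPM (horizontal log axis) for each gene with counts in both libraries, with exact 95% intervals for the mir-34 genes and dotted lines at a 2-fold ratio. Mir34c at 0.14, Mir34a at −0.02 and Mir34b at −0.33 all lie inside the dotted lines.

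No read lay on the strand opposite to Mir34a, Mir34b or Mir34c in either library. Among the 284 genes at 10 CPM in both libraries, 90.1% likewise had no opposite-strand count. The counts without regard to strand are therefore equal to the sense counts for these 3 genes.

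Of the 3 mir-449 genes, which are known for their link to motile cilia and of which Mir449a and Mir449c have the 5p seed printed above, Mir449a was the single one with more than 1 count. It had 91 and 81 counts, which are 20.3 and 15.3 CPM (17.8 ± 3.52, SD, n = 2). Mir449c had 0 and 1 counts, and Mir449b had 0 in both libraries. A count of 0 was taken to allow up to 3 counts per library, which is 0.670 CPM in replicate 1 and 0.568 CPM in replicate 2, while the two-sided exact Poisson 95% interval drawn in the plot of levels reaches 0.824 and 0.699 CPM. All 3 lie in introns of Cdc20b on its own strand.

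Mir449a and Mir34b stood at neighbouring levels. The ratio of Mir34b to Mir449a was 1.18 in replicate 1 (exact binomial 95% interval 0.881 to 1.57) and 1.96 in replicate 2 (1.49 to 2.60). The interval of replicate 1 includes 1, so the order of these genes was not resolved in that library. Mir34a exceeded Mir449a by a ratio of 10.9 ± 2.24 (SD, n = 2). The mir-449 genes together had 17.9 ± 3.39 CPM, against 935 ± 41.9 CPM for the mir-34 genes (SD, n = 2).

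Markers of epithelium, one of the tissues in which Mir34b, Mir34c and mir-449 are known, were detected. The mir-200 genes Mir200a, Mir200b, Mir200c, Mir141 and Mir429 summed to 735 and 727 CPM in replicates 1 and 2, and 5 of 5 reached 10 CPM in both. Of the markers of multiciliated cells, the 3 mir-449 genes, 1 of 3 reached it. Of 6 neural markers of the Mir124a and Mir9 groups, Mir9-1 was not analysed here. Of the 5 others 0 reached 10 CPM, 3 had no count in either library, and the sum was 2.01 and 0.947 CPM. All 5 neural hairpins share windows with other hairpins, so their reads may be missing from the counts. The part of any cell type in the mir-34 levels was not tested. In RNA of heart tissue, fewer cells of a type and less RNA per cell cannot be told apart.

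Other microRNA genes linked to p53 spanned a wider range than the mir-34 family, with 10 genes against 3. The top of that range was Mir143, and the others reached from 16.4 CPM for Mir141 to 2082 CPM for Mir107. Of all 1973 genes, only 712 had a count in either library, and 14.4% reached 10 CPM in both. The list held 10 genes, and 10 of 10 reached that level. Their median was 183 CPM, beside 191 CPM for the mir-34 genes, and their sum was 93982 ± 1319 CPM (SD, n = 2). Nearly all of that sum was Mir143, a smooth muscle microRNA whose processing p53 promotes, at 88442 ± 1103 CPM (SD, n = 2). Its neighbour Mir145a, for which both induction and processing have been linked to p53, had 1204 ± 105 CPM, and the cell cycle inhibitor Mir16-1 had 1743 ± 160.4 CPM (SD, n = 2).

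Of the genes known to be induced by p53, Mir107, in an intron of Pank1, had 2082 ± 64.1 CPM and lay above Mir34c. Mir215 had 272 ± 5.62 CPM, between Mir34c and Mir34a. Mir192, a relative of Mir215 known from liver, gut and kidney, had 49.7 ± 3.31 CPM and lay between Mir34a and Mir34b (SD, n = 2 each). Mir194-1 and Mir194-2, the neighbours of Mir215 and Mir192, had 37.2 ± 7.13 and 42.8 ± 3.52 CPM (SD, n = 2). The epithelial Mir200c and Mir141 had 93.8 ± 14.2 and 16.4 ± 5.78 CPM (SD, n = 2). Mir107, Mir16-1, Mir194-1 and Mir194-2 share a window of 22 bases with another hairpin, so their levels are uncertain.

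Between the replicates, 0 of these 10 genes were called at a 2-fold ratio, with 0.421% of all genes called. At any ratio 6 of 10 passed the adjusted p of the exact binomial test, against 16.7% of all genes. Passing at any ratio depends on depth, and the list had a median of 183 CPM against 2.53 CPM for all genes tested. These shares therefore do not show that the listed genes varied more. Among the 6 that passed, log2 ratios reached from −0.74 for Mir141, with 55 and 108 counts, to 0.06 for Mir107. Mir200c, with 375 and 548 counts, was at −0.31 and Mir143 at −0.03. Those that did not pass reached from −0.39 for Mir194-1 to 0.17 for Mir194-2.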

How the data were processed

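Small RNA of under 30 bases by the labels was sequenced from 2 heart samples, 1 library each. The deposited tables give, for each microRNA gene, the raw count of its reads on mm10 with annotation M4, per the descriptions deposited beside them. Which aligner and counter the authors used is not given in the sources used here. The 3 count columns have no names and were read from their sums as counts without regard to strand, sense and opposite. The 4 rows that name no gene were left out of library sizes. Of 9235580 reads in replicate 1 and 10601121 in replicate 2, 27.1% and 25.3% had several matches and 18.1% and 19.1% were unmapped. A further 6.29% and 5.88% matched no microRNA gene in its own orientation. These can include reads on the opposite strand of a microRNA gene, which were counted 217121 and 228729 times.

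CPM was computed over all sense gene counts. GENCODE M21, whose assembly GRCm38 is mm10 under another name, supplied symbols and positions. Exact Poisson and Clopper-Pearson 95% intervals and the exact binomial test used scipy 1.17.1. The test passed on simulated counts, but these held counting error only, as the test itself assumes. That run therefore does not show how the test behaves with spread between biological replicates. TMM and an exact test with the common dispersion came from edgeR 4.0.16, and other size factors from DESeq2 1.42.0. Replicates are labelled as separate biological samples. The members, lists and tests were chosen with earlier results of these data known. Named genes were the members, their relatives by seed, the p53-linked list, the markers, the 3 genes nearest to each member by level and its neighbours in the order.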

Additional observations from a re-analysis of the deposited data

How the results depend on the processing

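The order Mir34c, Mir34a, Mir34b and the absence of a 2-fold call for each of them held under every alternative tried. Within a library, a changed denominator or scaling could not alter that order. Nor could counts without regard to strand, which equal the sense counts for these 3 genes. Hairpin length and leaving out a replicate could have altered it. Counts without regard to strand gave 182 CPM for Mir34a and 89860 CPM for the p53-linked list, through the larger total. With all reads as the denominator, the levels were 352 CPM for Mir34c, 93.8 for Mir34a, 13.3 for Mir34b, 8.79 for the mir-449 genes and 46197 for the p53-linked list, because the denominator is larger. Per base of hairpin, an alternative chosen after seeing the data, the ratio of Mir34c to Mir34a was 4.98 and that of Mir34a to Mir34b 5.89. Ranks of Mir34c, Mir34a and Mir34b were 103, 155 and 256 without regard to strand, and 87, 131 and 210 among genes with no shared window, where fewer genes are ranked. The median over neighbouring pairs was 2.65 with any count and 2.48 without shared windows, the last chosen after seeing the data.

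With 1 replicate left out in turn, the ratio of Mir34c to Mir34b was 22.7 to 31.4, that of Mir34c to Mir34a 3.56 to 3.96 and that of Mir34a to Mir34b 6.37 to 7.94. Ranks were 94 to 96 for Mir34c, 146 to 149 for Mir34a and 245 to 252 for Mir34b, and the median over pairs was 2.55 to 2.59. The number of genes called between the libraries was 3 under TMM or DESeq2 size factors, 4 with at least 10 counts and 2 with the edgeR exact test, which has 1 library a side. All 9 nearest genes were the same with a pseudocount of 0.5. No paired analysis was possible because the design holds 1 group. Depth limits genes with few counts, such as Mir34b and Mir449a, and more so Mir449c and Mir449b.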
